A study of Homo sapiens with 6 samples.

Results

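The genes described here are 10 markers by which ovarian carcinoma is recognised or targeted: the lineage transcription factor genes PAX8, SOX17 and WT1, and the genes of the surface or secreted proteins MUC16, MUC1, WFDC2, MSLN, FOLR1, EPCAM and CD24. They were chosen by symbol, and each of the 10 matched 1 Ensembl identifier among the 58825 in the deposited table. The libraries were made from SKOV3, an established human line of ovarian adenocarcinoma cells, 48 h after transient transfection. Of these, 3 libraries came from cells given a control siRNA (NC) and 3 from cells given si-EIF5A2, an siRNA against EIF5A2, which encodes a translation factor. Both groups were thus transfected cells of 1 cell line, and the labels do not say whether the 3 libraries of a group came from separate cultures, so p-values measure only the spread between these libraries. The comparison asks whether the markers of the lineage changed when EIF5A2 was knocked down.

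PAX8 and SOX17 are transcription factors of the Müllerian lineage, from which the epithelium of the fallopian tube and much of epithelial ovarian carcinoma derive, and pathologists stain for PAX8 to recognise such tumours. WT1 marks serous carcinoma and is also made by mesothelial cells. MUC16 carries the CA125 antigen and WFDC2 encodes the serum marker HE4. MSLN (mesothelin), FOLR1 (the folate receptor alpha) and CD24 are held on the cell surface by a glycosylphosphatidylinositol (GPI) anchor, whereas MUC1 and EPCAM cross the membrane.

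The stretch around the annotated start of PAX8 is shown because PAX8 was the marker whose RNA changed, and that of WT1 because an antisense gene starts inside it. Each holds 300 bases from RefSeq (GRCh38.p14), at chr2:113278872-113279171 and chr11:32435490-32435789, read on the minus strand from 5′ to 3′. RefSeq windows were found for 6 of the 10 markers, PAX8, WT1, CD24, MUC1, MUC16 and WFDC2. Capitals mark the letters CACCC on either strand, the core of the sites bound by the KLF family of transcription factors.
PAX8: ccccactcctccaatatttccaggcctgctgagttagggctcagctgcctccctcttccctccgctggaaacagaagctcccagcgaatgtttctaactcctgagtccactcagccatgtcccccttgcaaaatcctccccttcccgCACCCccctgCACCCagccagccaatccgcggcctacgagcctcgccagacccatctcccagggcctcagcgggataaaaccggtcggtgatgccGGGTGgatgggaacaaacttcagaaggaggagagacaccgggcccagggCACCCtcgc
WT1: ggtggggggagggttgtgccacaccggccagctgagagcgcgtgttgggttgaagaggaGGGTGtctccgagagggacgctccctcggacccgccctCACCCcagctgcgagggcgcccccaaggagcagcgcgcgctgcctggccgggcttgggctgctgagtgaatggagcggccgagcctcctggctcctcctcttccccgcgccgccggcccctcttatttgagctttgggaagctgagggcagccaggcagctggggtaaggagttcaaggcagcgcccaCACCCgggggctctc
The window of PAX8 held 4 matches of CACCC and 2 of CCAAT, with neither GGGCGG nor TATAAA on either strand. The printed window of WT1 held 3 matches of CACCC and 1 of GGGCGG. RefSeq windows at other starts of WT1 held 1, 0 and 0 matches of CACCC, with GC contents of 55%, 64.3% and 47.3%. The letters CACCC occurred in 59.9% of all 35116 RefSeq windows of this kind, CCAAT in 34.6%, GGGCGG in 45.0% and TATAAA in 11.5%, so the first 3 of these are common and the matches are a description of the sequence. The GC content was 62% in the PAX8 window and 70% in the WT1 window, against a median of 58.7% over all windows.

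PAX8, the most abundant of the 10 markers, was the one whose RNA changed, with the si-EIF5A2 libraries at 57.5% of the NC level. SOX17, CD24, WT1, EPCAM and MSLN were measured at low levels and did not pass the test. WFDC2, MUC1, FOLR1 and MUC16 were at or near 0 and were not tested. A gene was called where edgeR (quasi-likelihood test) gave a Benjamini-Hochberg adjusted p under 0.05 and the change was over 1.5-fold. By this rule 1 of the 6 markers that passed the filter on low counts was called, and none of the other 5 separated the groups. Among all 16208 genes tested the share called was 24.6%, with 13.6% lower and 11.1% higher after si-EIF5A2. The share of them in which the groups did not overlap was 51.2%. The median log2 fold change (si-EIF5A2 against NC) was -0.011 over the 6 markers tested and -0.0105 over all genes tested.

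EIF5A2, the targeted gene, fell from 29.1 ± 1.15 to 3.69 ± 0.816 CPM (counts scaled to the library's size, with TMM factors). Here and throughout, ± gives the SD over the 3 libraries of a group. Library totals ran from 46900204 to 74142267 estimated counts. Low values piled up at multiples of about 3.82 counts, so that a sequenced fragment appeared to be worth several counts. A gene at 0 in a library can still be present at up to 3 fragments, which is 0.157 to 0.244 CPM, and such limits cover counting error only. The epithelial markers used to check the cell type (KRT7, KRT8, KRT18, KRT19, CDH1 and ERBB2) summed to 1407 to 1549 CPM in NC and 897 to 1100 CPM after si-EIF5A2, almost all of it keratins, while CDH1 was at 0.663 ± 0.301 CPM in NC. Of the 8 leukocyte markers, 5 were at 0 in every library, PTPRC and CD3E among them, and the sum of the 8 (40.8 to 57.3 CPM in NC, 29 to 55.4 CPM after si-EIF5A2) was nearly all CD68, a lysosomal protein best known from macrophages. CD68 had 46.2 ± 9.56 CPM in NC and 39.1 ± 14.3 CPM after si-EIF5A2 and was not called (-0.24), but passed without si-EIF5A2 replicate 3 (-0.59).

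**Figure D1:**
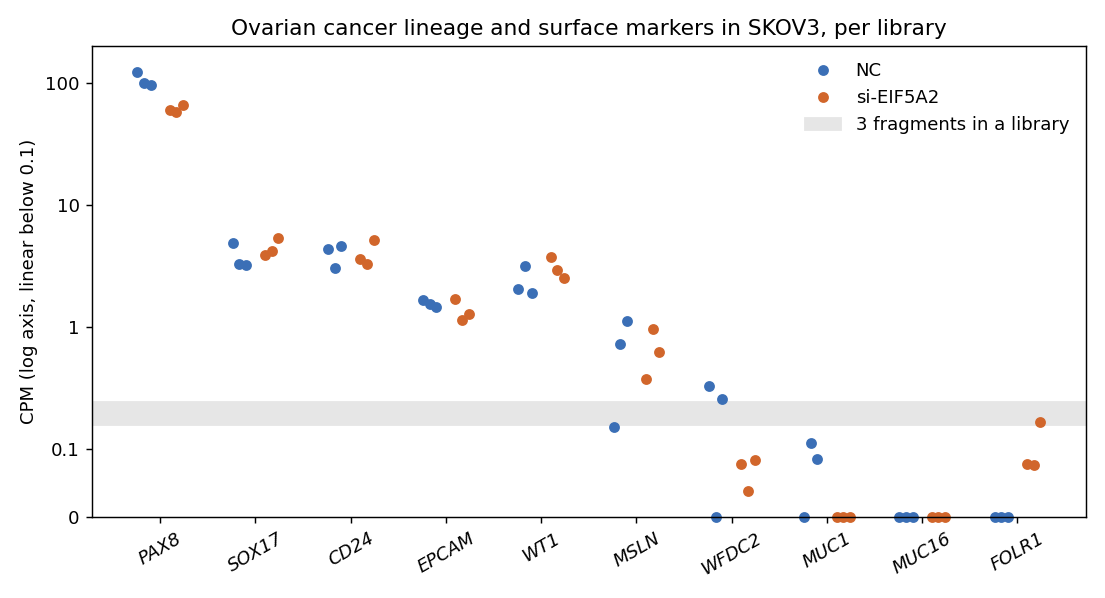
Level of each of the 10 markers in each library, in CPM on a log axis that is linear below 0.1 (blue, 3 NC libraries; orange, 3 si-EIF5A2 libraries), ordered by the NC level per kilobase. The grey band is the level of 3 fragments in a library, 0.157 to 0.244 CPM. PAX8 stands highest and is lower in all 3 si-EIF5A2 libraries, and the 4 markers at the right lie around or under the band.

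Per kilobase of exon sequence, so that levels can be compared between genes, PAX8 stood at 14.3 ± 1.86 CPM per kb in NC, at the percentile 88.6 of the 25538 genes with at least 1 count and a known length. SOX17 followed with 1.62 ± 0.393 and CD24 with 1.29 ± 0.271 CPM per kb, and the ranges of this pair over the NC libraries met. EPCAM, at 0.617 ± 0.0381, and WT1, at 0.572 ± 0.165 CPM per kb, lay below both, near the middle of the ranking (percentiles 52.3 and 51.6), and their ranges met too. MSLN had 0.260 ± 0.192 and WFDC2 0.141 ± 0.125 CPM per kb, again with ranges that met, and MUC1, MUC16 and FOLR1 were at 0 in some or all NC libraries. After si-EIF5A2, WT1 at 0.741 ± 0.153 stood above EPCAM at 0.543 ± 0.111 CPM per kb, with ranges that met as well. PAX8 made up 76.0% of the summed per-kilobase level of the 10 markers in NC and 63.0% after si-EIF5A2.

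PAX8 lies on chromosome 2 (GRCh38, 113215997 to 113278950, minus strand). It had 122, 99.9 and 96.4 CPM in NC replicates 1 to 3 and 59.5, 57.1 and 66.2 CPM in si-EIF5A2 replicates 1 to 3. The highest si-EIF5A2 library was thus well below the lowest NC library, and NC replicate 1 was the highest of all. The mean went from 106 ± 13.8 to 60.9 ± 4.72 CPM, and the log2 fold change was -0.80 with a standard error of 0.11 and a 95% interval of -1.06 to -0.54 (edgeR, Benjamini-Hochberg adjusted p = 0.000928). The interval included changes smaller than the 1.5-fold limit. Among all genes tested the groups did not overlap in 51.2%, 26.5% with the si-EIF5A2 libraries lower, so the separation of the libraries was common in this comparison. Leaving out single libraries gave values of -0.87 to -0.69, and PAX8 was called each time. Under the threshold given in the study's methods, an unadjusted p under 0.05 and a 2-fold change, PAX8 missed the limit on the fold. By that threshold 0 of the 6 markers tested passed, against 14.6% of all genes tested.

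PAX8-AS1, a transcript from the opposite strand of the same locus, shares 685 exon bases with PAX8, and since the sources do not say whether the libraries kept the strand, reads from these bases cannot be told apart. PAX8-AS1 had 2.60, 2.81 and 2.66 CPM in NC and 1.92, 1.88 and 1.73 CPM after si-EIF5A2. It was also lower in each si-EIF5A2 library, but its log2 fold change, -0.55 with a standard error of 0.20, did not pass (edgeR, adjusted p = 0.0715). Its level was far under that of PAX8. The genes whose log2 CPM followed PAX8 most closely over the 6 libraries were EIF3I (Pearson r = 0.999), a subunit of a translation initiation factor, PABPC4 (0.998), a poly(A)-binding protein, and GSTK1 (0.997), a glutathione transferase. With 3 libraries in each of 2 groups such values mostly follow the difference between the groups, and 31 genes had r over 0.99. EIF3I had a log2 fold change of -0.32, PABPC4 of -0.42 and GSTK1 of -0.66, all smaller in size than that of PAX8.

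SOX17, which acts together with PAX8 in ovarian carcinoma cells, lies on chromosome 8 from 54457935 to 54460888. It had 4.86, 3.30 and 3.23 CPM in NC and 3.85, 4.17 and 5.33 CPM after si-EIF5A2. The groups overlapped, with NC replicate 1 above 2 of the si-EIF5A2 libraries. The log2 fold change was 0.23, with a 95% interval of -0.31 to 0.76 (edgeR, adjusted p = 0.498), and leaving out single libraries gave 0.073 to 0.45. The interval held both a fall and a rise, so that no change in SOX17 was detectable at this level.

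WT1, a zinc finger transcription factor gene on chromosome 11 from 32387775 to 32435630, had 2.04, 3.13 and 1.89 CPM in NC and 3.73, 2.91 and 2.50 CPM after si-EIF5A2. The si-EIF5A2 mean of 3.05 ± 0.628 CPM was above the NC mean of 2.35 ± 0.677 CPM, but NC replicate 2 lay above 2 si-EIF5A2 libraries. The log2 fold change, 0.37 with a 95% interval of -0.27 to 1.01, did not pass the test (edgeR, adjusted p = 0.345). WT1-AS, the antisense gene that starts within the window printed above, shares 113 exon bases with WT1 on the opposite strand. It had 1.42, 1.59 and 0.850 CPM in NC and 1.95, 3.03 and 1.77 CPM after si-EIF5A2. All 3 si-EIF5A2 libraries were above the NC libraries for WT1-AS, and its log2 fold change, 0.80 with a standard error of 0.34, did not pass either (edgeR, adjusted p = 0.109).

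**Figure D2:**
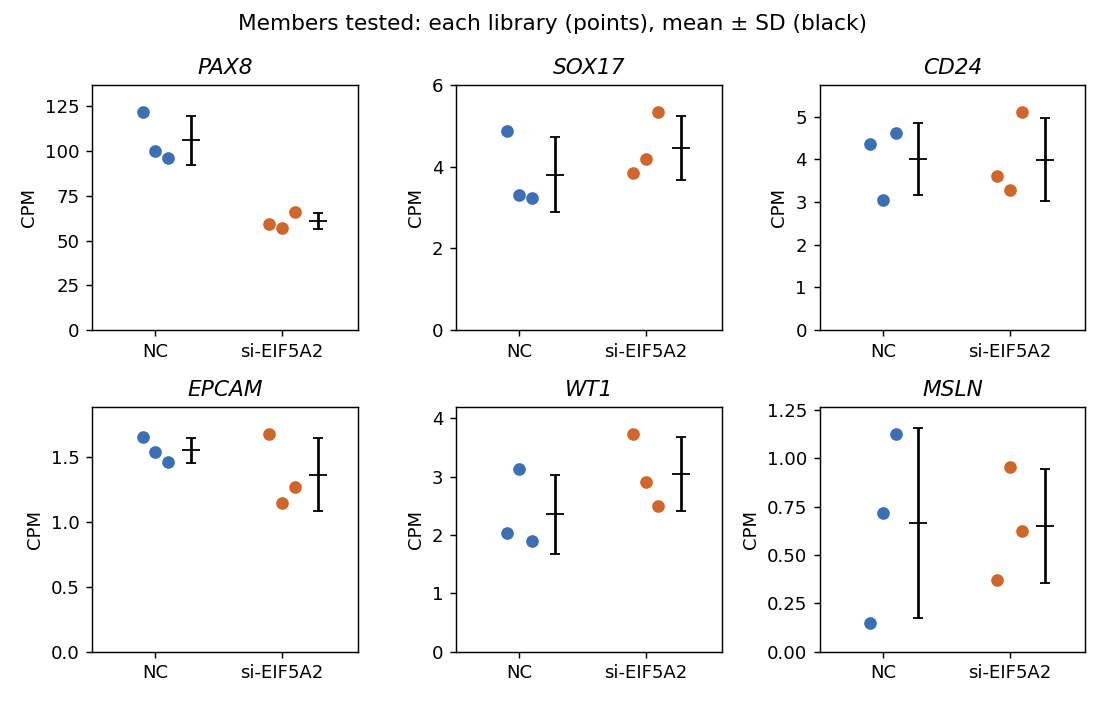
Level in CPM, on linear axes that start at 0, of the 6 markers tested, in each of 3 NC libraries (blue) and 3 si-EIF5A2 libraries (orange), with the mean and SD of each group in black. The groups are separate in PAX8, from 106 to 60.9 CPM on average, and overlap in SOX17, CD24, EPCAM, WT1 and MSLN.

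CD24, a small heavily glycosylated protein that Siglec-10 on immune cells recognises, and a marker used with CD44 to sort stem-like cells, had 4.35, 3.05 and 4.61 CPM in NC and 3.60, 3.27 and 5.10 CPM after si-EIF5A2. The spread within a group was wider than the distance between the groups. The means were 4.0 ± 0.839 and 3.99 ± 0.977 CPM, with a 95% interval of the log2 fold change from -0.58 to 0.57. CD24 has processed pseudogene copies, among which reads can be shared, so its level is less certain. CD44, the partner marker, stood much higher, at 672 ± 155 CPM in NC and 863 ± 36.9 CPM after si-EIF5A2, and its log2 fold change, 0.36 with a standard error of 0.16, did not pass (edgeR, adjusted p = 0.122).

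EPCAM, an adhesion molecule of epithelial cells on chromosome 2 from 47345158 to 47387601, had 1.66, 1.54 and 1.47 CPM in NC and 1.68, 1.15 and 1.27 CPM after si-EIF5A2. The NC libraries lay close together, and si-EIF5A2 replicate 1 was above all of them. The log2 fold change was -0.19, with a 95% interval of -0.82 to 0.45 (edgeR, adjusted p = 0.649). MSLN, on chromosome 16 from 760762 to 768865, had 0.151, 0.719 and 1.13 CPM in NC and 0.371, 0.957 and 0.625 CPM after si-EIF5A2. NC replicate 1, with 11 counts or about 2.9 fragments, was far below the other NC libraries, and the groups overlapped. Leaving out NC replicate 1 gave MSLN a log2 fold change of -0.50, and leaving out NC replicate 3 gave 0.57. The 95% interval, -1.71 to 1.67, held 2-fold changes in both directions, so that even these were not detectable.

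**Figure D3:**
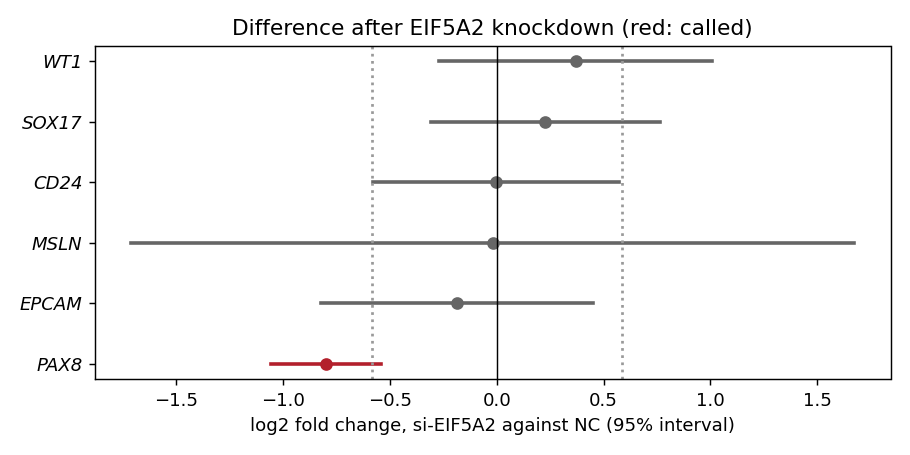
Log2 fold change of the 6 markers tested, si-EIF5A2 against NC (points), with the 95% interval (lines). Dotted lines mark a 1.5-fold change in either direction. PAX8, at -0.80, is the one marker called (red), and the interval of MSLN, from -1.71 to 1.67, is the widest.

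The 4 markers that were not tested all encode secreted or surface proteins, as do CD24, EPCAM and MSLN, which were tested. WFDC2 had 24, 0 and 12 counts in NC and 4, 2 and 4 counts after si-EIF5A2, about 6.3, 0 and 3.1 against 1.0, 0.5 and 1.0 fragments. Since NC replicate 2 was at 0, the groups overlapped. MUC1 had 0, 8 and 4 counts in NC and 0 in each si-EIF5A2 library, and it shares 48 exon bases with a same-strand neighbour that overlaps it and was at 0 in every library. FOLR1 was at 0 in the NC libraries and had 4, 4 and 8 counts after si-EIF5A2, about 1.0, 1.0 and 2.1 fragments. Both MUC1 and FOLR1 thus lay under the limit of 3 fragments in every library. MUC16, the source of CA125, was at 0 in all 6 libraries, which allows up to 0.0600 CPM over the NC group and 0.0757 CPM over the si-EIF5A2 group.

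FOLR3, a related folate receptor gene named here after its values were seen, had 0, 11 and 19 counts in NC and 69, 85 and 64 counts after si-EIF5A2. Every si-EIF5A2 library of FOLR3 was above every NC library, but its log2 fold change, 3.00 with a standard error of 1.03, did not pass (edgeR, adjusted p = 0.0580). It passed without NC replicate 1 (2.38), without NC replicate 3 (4.17), with DESeq2 (2.98) and with counts divided by their step (3.05). FOLR2 was at 0 in every library. The folate receptor genes are alike in sequence, so the few fragments counted for FOLR1 are uncertain.

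**Figure D4:**
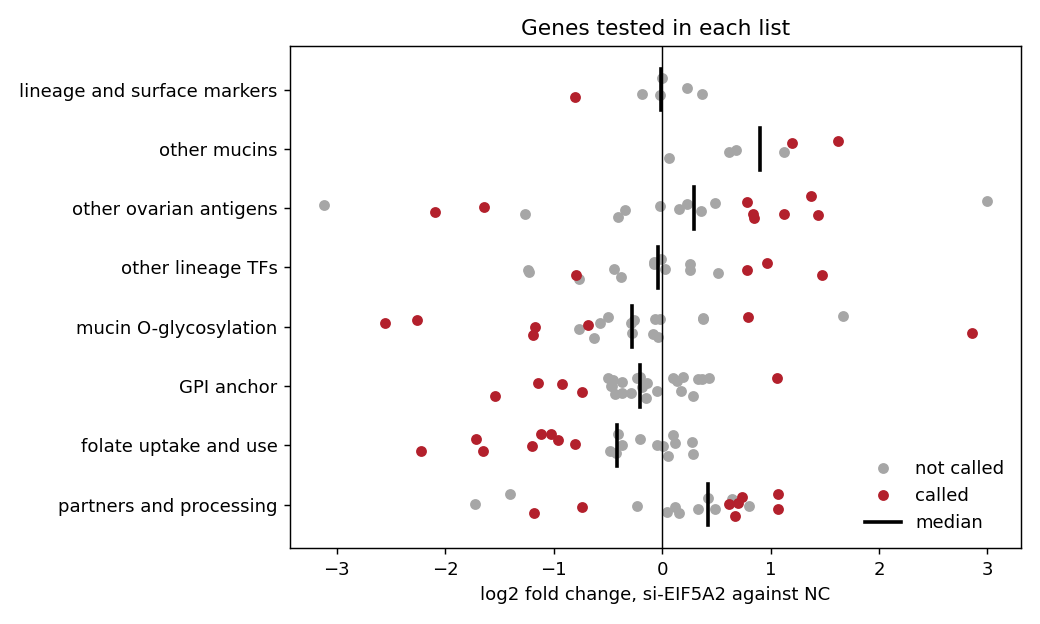
Log2 fold change, si-EIF5A2 against NC, of each gene tested among the lineage and surface markers and in 7 related lists (red, called; grey, not called; black bar, median). Of the 6 markers 1 (16.7%) is called, against 24.6% of all genes tested, and the share in the 7 lists runs from 18.5% (GPI anchor) to 44.4% (other ovarian antigens).

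The markers were set beside 7 lists of related genes, written from general knowledge. Among 35 other antigens of ovarian carcinoma, 18 were tested, and 8 of them (44.4%) were called, 6 higher and 2 lower after si-EIF5A2, with a median log2 fold change of 0.29. F3 (tissue factor) rose with a log2 fold change of 1.44, L1CAM, an adhesion molecule, with 1.38, and TPBG, the trophoblast glycoprotein, with 0.85. The 2 that fell, CLDN4 (-2.09) and SLPI (-1.64), were named after their values were seen, and both had under 2 CPM in NC. CLDN4 lost its call without NC replicate 1, NC replicate 2 or si-EIF5A2 replicate 3 (-1.96, -2.07 and -2.15), and SLPI lost it without any 1 library other than si-EIF5A2 replicate 2 (values of -1.80 to -1.28). With a block for replicate number both calls were lost as well, CLDN4 at -2.25 (edgeR, adjusted p = 0.0506) and SLPI at -1.70 (0.0800). CD47, the signal against phagocytosis, had 0.49 and LGALS3BP 0.23, and neither was called. ERBB2, the growth factor receptor for which SKOV3 is known, had 45.9 ± 2.29 CPM in NC and 45.4 ± 2.98 CPM after si-EIF5A2. Per kilobase its NC level was 4.45 CPM per kb, at the percentile 74.7, under the 14.3 CPM per kb of PAX8.

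Of 33 other transcription factors of the Müllerian tract, ovary and epithelium, 16 were tested and 4 (25%) called, with a median of -0.042. KLF5, an epithelial factor, rose from 8.60 ± 0.745 to 23.9 ± 3.14 CPM, a log2 fold change of 1.47. NR2F2 (COUP-TFII), a nuclear receptor, rose from 43.2 ± 6.82 to 84.7 ± 6.21 CPM. SOX7, a close relative of SOX17, fell from 18.1 ± 2.90 to 10.4 ± 1.82 CPM, a log2 fold change of -0.80. GATA6 rose with 0.78, but was no longer called with replicate number as a block (0.75; edgeR, adjusted p = 0.0514) and without NC replicate 2 (0.76), NC replicate 3 (0.71), si-EIF5A2 replicate 1 (0.76) or si-EIF5A2 replicate 3 (0.58).

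Of 20 mucins other than MUC1 and MUC16, 10 were at 0 in every library and 6 were tested, of which 2 (33.3%) were called, both higher, with a median of 0.90. PODXL, a sialomucin, rose from 339 ± 12.8 to 780 ± 51.1 CPM, a log2 fold change of 1.20. The second mucin called, MUC20, was named after its values were seen, and had 0.310 ± 0.110 CPM in NC and 0.967 ± 0.394 CPM after si-EIF5A2. MUC20 lost its call without any 1 library other than si-EIF5A2 replicate 2 (log2 fold changes of 1.38 to 1.87), so that 1 mucin was called there. With a block for replicate number MUC20 was not called either (1.59; edgeR, adjusted p = 0.132). MCAM (0.065), an adhesion molecule, and CD164 (0.62), a sialomucin, were abundant and not called, and CD164 had 0.19 without si-EIF5A2 replicate 1.

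The enzymes that build the O-linked sugars of mucins had 21 of 28 genes tested and 7 (33.3%) called, 2 higher and 5 lower, with a median of -0.28. ST6GALNAC3, a sialyltransferase, fell with a log2 fold change of -2.55, and the polypeptide N-acetylgalactosaminyltransferase genes GALNT16 (-1.19) and GALNT10 (-1.18) fell as well. B3GNT3 (-2.26) and GALNT7 (-0.68) also fell. B3GNT3 had 1.22 ± 0.339 CPM in NC and 10, 12 and 16 counts after si-EIF5A2, near the limit of 3 fragments. ST3GAL1, which adds sialic acid to the core 1 sugar, rose from 132 ± 6.52 to 228 ± 5.28 CPM, and GCNT4, a branching enzyme, rose from 0.726 ± 0.333 to 5.35 ± 0.862 CPM. GALNT2 had 0.38 and missed the limit on the fold.

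Synthesis and attachment of the GPI anchor, which MSLN, FOLR1 and CD24 carry, had 27 of 28 genes tested and 5 (18.5%) called, 4 lower and 1 higher, with a median of -0.20. PIGB, a mannosyltransferase, fell with a log2 fold change of -1.54, DPM3, a subunit of the mannose donor synthase, with -1.14, PIGX with -0.92 and PIGO with -0.73. PIGZ, also a mannosyltransferase, rose with 1.06. PIGT, a subunit of the transamidase that attaches the anchor, was at 202 ± 28.2 CPM in NC and 165 ± 1.55 CPM after si-EIF5A2 and was not called. Without a limit on the fold 10 genes of this list passed, and 3 passed at the threshold of the methods.

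Genes of folate uptake and use, the pathway that FOLR1 feeds, had 20 of 22 tested and 8 (40%) called, all 8 lower after si-EIF5A2, with a median of -0.42. TYMS, the thymidylate synthase, fell from 54.5 ± 5.28 to 16.6 ± 1.55 CPM, a log2 fold change of -1.71. The mitochondrial serine hydroxymethyltransferase gene SHMT2 fell with -1.65 and ATIC, of purine synthesis, with -1.20. MTHFD2 (0.0054) and GART (0.052), both abundant, were not called. SLC19A1, the reduced folate carrier and thus another route of folate entry, had 32.3 ± 5.43 CPM in NC and 39.3 ± 3.59 CPM after si-EIF5A2 and was not called.

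Known partners and processing enzymes of the markers had 19 of 26 genes tested and 8 (42.1%) called, 6 higher and 2 lower, with a median of 0.42. FHL2, which carries the cleaved tail of EPCAM to the nucleus, rose from 54.7 ± 1.89 to 115 ± 7.60 CPM, and WTIP, a protein that binds WT1, rose from 10.5 ± 1.22 to 22.1 ± 0.922 CPM, each with a log2 fold change of 1.07. PSEN2, a catalytic subunit of the gamma-secretase that cuts EPCAM, rose with 0.74. SPINT2, an inhibitor of serine proteases, fell with -0.74 and LEF1 with -1.18, and LEF1 lost its call without NC replicate 3 (-0.92) or when leaving out si-EIF5A2 replicate 2 (-0.96). LGALS1 (0.16), CD9 (0.12), CTNNB1 (0.043) and FURIN (-0.23), all with a mean of at least 100 CPM, were not called.

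Since WT1, MSLN and MUC16 also mark mesothelium, other cell type markers are given beside them. Of 8 mesothelial markers 3 were tested, and the sum of the 8 ran from 29.6 to 33.7 CPM in NC and from 24.3 to 28.9 CPM after si-EIF5A2, nearly all of it BNC1, which was not called (-0.13). CALB2 (1.87 ± 0.310 CPM in NC, log2 fold change -2.18) and LRRN4 (0.690 ± 0.418 CPM in NC, -2.97) fell, and KRT5 was at 0. CALB2 lost its call without NC replicate 3 (-2.05) or when leaving out si-EIF5A2 replicate 1 (-1.99), and its value moved to -3.06 without si-EIF5A2 replicate 3. LRRN4 lost it with a block for replicate number (-2.73) and without any 1 of NC replicates 1 and 3 and si-EIF5A2 replicates 1 and 3 (-2.96 to -2.62). Endothelial markers summed to 37.7 to 43.4 CPM in NC and 7.8 to 12.9 CPM after si-EIF5A2, mostly through CDH5, which fell with -5.08. Fibroblast markers summed to 1.85 to 2.81 CPM in NC and 3.01 to 5.54 CPM after si-EIF5A2, so that every si-EIF5A2 library was above every NC library. Among them FAP rose from 1.08 ± 0.349 to 2.59 ± 0.824 CPM, a call lost without NC replicate 3 (1.0) or si-EIF5A2 replicate 2 (0.96). PDGFRB fell from 0.601 ± 0.297 to 0.0278 ± 0.0481 CPM, with 2 si-EIF5A2 libraries at 0, and lost its call without NC replicate 2, NC replicate 3, si-EIF5A2 replicate 1 or si-EIF5A2 replicate 2 (-4.18 to -3.80). Without si-EIF5A2 replicate 3 the remaining si-EIF5A2 libraries of PDGFRB were at 0 and no fold is given. Of the epithelial markers, KRT7 fell from 382 ± 26.1 to 209 ± 8.73 CPM and KRT8 from 608 ± 49.0 to 376 ± 24.8 CPM, in the same direction as PAX8, and KRT18, KRT19, CDH1 and ERBB2 were not called. The part of these differences in the result for PAX8 was not tested. In bulk RNA, fewer cells that make a transcript and less of it per cell cannot be told apart.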

How the data were processed

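RNA of SKOV3 cells transfected with NC or si-EIF5A2 was measured by RNA-seq (3 libraries each). Expression was estimated by the authors with StringTie and ballgown, and the table they deposited holds an estimated count per gene, not normalized and already whole. The aligner, genome build and strand setting for these human libraries are not given in the sources used here. The submitters' processing notes name Bowtie 0.12.2 and the mouse builds mm8 and mm9, although the identifiers are human. The 6 columns were matched to libraries by name, with 0 left over. Symbols came from the reference for 58472 of 58825 identifiers, and positions and exon lengths (union of exons) from GENCODE release 29 (GRCh38).

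edgeR 4.0.16 (R 4.3.3) was run on all 6 libraries with condition as the only term (filterByExpr, TMM, robust quasi-likelihood fits, Benjamini-Hochberg adjustment over 16208 genes). A standard error is the size of the log2 fold change over the root of F, and 95% intervals use the fitted degrees of freedom. The steps were tested on simulated counts.

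The members and lists were chosen with earlier results of these data known. Named are EIF5A2, every member, the cell type markers, up to 4 called genes with the largest change per list at a mean of at least 5 CPM, uncalled genes of at least 100 CPM, and the 3 genes most like a called member. Some genes that this rule names are not reported here. Other genes were named after their values were seen: PAX8-AS1, WT1-AS, FOLR2, FOLR3, SLC19A1, and called genes outside the rule. Alternatives were DESeq2 1.42.0, other scalings (RLE, upper quartile, library size only), other filters (none, or 10 counts in every library), replicate number as a block, counts divided by their step, summing by symbol, leaving out each library, and 2 other thresholds.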

Additional observations from a re-analysis of the deposited data

How the results depend on the processing

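PAX8 kept its direction and its call under all 15 alternative fits, with log2 fold changes from -0.87 to -0.69. The number of markers called was 1 in each of them and 0 at the threshold of the study's methods. There (p under 0.05, taken as unadjusted, and a change of over 2-fold) 2370 of all genes were called in place of 3992. At that threshold 2 of the other lineage factors, 3 GPI anchor genes and 3 partner or processing genes passed. With no limit on the fold, 10 GPI anchor genes passed. Of the other mucins, 1 was called with upper-quartile scaling, with no filter, with counts divided by their step and with the replicate block, and 1 to 2 with single libraries left out. Directions of values near 0 turned, and the cause was not tested. MSLN was at 0.25 with the replicate block and from -0.50 to 0.57 with single libraries left out, and it was not tested with counts divided by their step. CD24 was at 0.0048 with RLE, 0.0089 with library size only, and from -0.22 to 0.12 with single libraries left out. MTHFD2 was at -0.0074 with upper-quartile scaling, -0.025 with no filter, -0.0052 at 10 counts in every library, -0.0015 with counts divided by their step, and from -0.085 to 0.074 with single libraries left out. Likewise CTNNB1 ran from -0.035 to 0.11, GART from -0.053 to 0.11, KRT18 from -0.20 to 0.093 and ERBB2 from -0.057 to 0.028. The deviations of same-numbered libraries from their group means had correlations of -0.0244, 0.00522 and -0.0027. The labels do not say whether libraries with the same number were prepared together, and these values cannot decide it. With the replicate block, 3731 genes were called, PAX8 among them. The markers other than PAX8 were under 10 CPM, and the intervals of SOX17, WT1, EPCAM and MSLN reached past 1.5-fold on at least one side.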
